A study of Mus musculus with 12 samples.

Results

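The 8 mammary tumors described here are the 4 richest and the 4 poorest in stromal collagen RNA among the epithelial tumors of MADM-mutant mice. They were chosen by measured values in 2 steps. Of 12 sequenced tumors from 9 mice, the 9 tumors (from 6 mice) with at least 200 TPM of the epithelial adhesion molecule Epcam and at least 1000 TPM of the receptor tyrosine kinase Met were kept. These 9 were ranked by the mean log2(TPM + 1) of Col1a1, Col1a2 and Col3a1, and the top 4 were called stroma-rich and the bottom 4 stroma-poor. TPM, the usual measure of transcript abundance, divides the reads of a gene by its length and scales each tumor to the same total, so levels can be set against each other within and between tumors, but no read number remains and the depth of a tumor is unknown.

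Fibroblasts in the supporting tissue of a carcinoma secrete collagens I and III, whose triple helices assemble into fibrils and are cross-linked by lysyl oxidases. Proteoglycans and glycoproteins coat and space these fibrils, and integrins, discoidin receptors and syndecans on cells bind them. The same supporting tissue holds blood vessels with their pericytes, contractile fibroblasts, leukocytes and, in the mammary gland, fat cells of the surrounding pad. The RNA of a whole piece of tumor is a mixture of all of these with the carcinoma cells.

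All tumors were from female mice of 1 genotype class, labelled MADM RG;GR alleles on a mixed background, with no treatment. In MADM (mosaic analysis with double markers), Cre recombinase driven by the MMTV promoter recombines paired chromosomes in a few dividing mammary epithelial cells, which leaves sparse green daughter cells that lack Brca1 and p53 among heterozygous neighbours. This driver is directed at the epithelium and not at the stroma. Ages at collection were not in the labels used here, and RNA came from about 50 mg of whole tumor, so fewer cells of a type and less RNA per cell cannot be told apart in any value below. Stroma-rich tumors 3 and 4 shared a mouse, and a second mouse gave tumor 10 to the stroma-rich set and tumors 11 and 12 to the stroma-poor set, while tumors 1, 6 and 7 each came from a mouse of its own. Each set therefore rests on 3 mice, 1 of them common to both. In the 9 tumors between 15573 and 16417 genes had 1 TPM or more, and the mitochondrially encoded genes took between 3.66% and 7.40% of the TPM. Both targeted genes were listed in all 8 tumors, with Brca1 at 20.3, 20.3, 11.4 and 9.08 TPM in the stroma-rich tumors and at 16.6, 15.8, 9.93 and 18.1 TPM in the stroma-poor tumors (tumors in the order 4, 3, 1 and 10, and 11, 12, 6 and 7, which is kept throughout, with the stroma-rich tumors first). For Trp53 the values were 63.4, 62.5, 56.8 and 55.2 TPM and 60.9, 45.6, 74.2 and 37.7 TPM. Neither separated the sets, and a value per gene does not tell the RNA of mutant cells from that of heterozygous ones.

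The collagen levels formed a continuum and not separate groups. Col1a1, the first chain of collagen I (ENSMUSG00000001506, chromosome 11 from 94936224 to 94953042, plus strand), was at 599, 263, 205 and 149.8 TPM in the stroma-rich tumors and at 155, 110.2, 87.7 and 40.7 TPM in the stroma-poor tumors. Col1a2, the second chain of collagen I (ENSMUSG00000029661, chromosome 6 from 4504814 to 4541544, plus strand), was at 704, 312, 245 and 196 against 179, 146, 104 and 51.0 TPM. Col3a1, the single chain of collagen III (ENSMUSG00000026043, chromosome 1 from 45311538 to 45349706, plus strand), was at 1091, 375, 195 and 182 against 147, 170.4, 93.5 and 44.2 TPM. Tumor 4 stood highest in each gene and tumor 7 lowest, whereas the tumors in the middle of the order lay close together. The mean log2(TPM + 1) of the 3 genes was 9.59, 8.30, 7.75 and 7.46 in the stroma-rich tumors, 7.35 in the middle tumor 5, and 7.33, 7.14, 6.58 and 5.53 in the stroma-poor tumors. The last tumor inside the stroma-rich set lay 0.11 above tumor 5, which lay 0.018 above the first stroma-poor tumor, over a range of 4.07. Col1a1 alone would have placed tumor 11, at 155 TPM, above tumor 10, at 149.8 TPM, and these 2 tumors are from the same mouse. Col3a1 alone would have placed the middle tumor 5, at 229 TPM, above the stroma-rich tumors 1 and 10. As these 3 genes set the ranking, their differences were not tested.

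**Figure D1:**
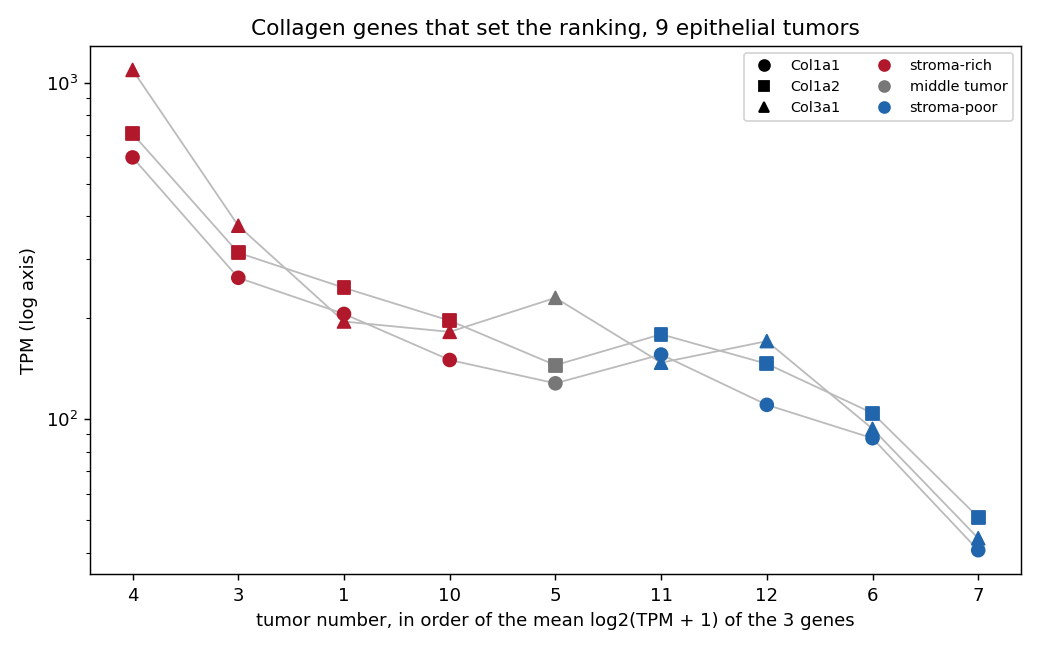
TPM (log axis) of Col1a1, Col1a2 and Col3a1 in the 9 epithelial tumors, ordered by the mean log2(TPM + 1) of the 3 genes; each marker is 1 tumor and colour gives the set. Values fall from 599 to 1091 TPM in tumor 4 to between 40.7 and 51.0 TPM in tumor 7, with tumors 10, 5, 11 and 12 close together.

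Epcam and Met, the genes of the epithelial threshold, are given as a description. Epcam was at 336, 418, 1004 and 702 TPM in the stroma-rich tumors and at 850.1, 320.4, 689 and 239 TPM in the stroma-poor tumors, and Met was at 2135, 2492, 3011 and 3119 against 2475, 1788, 1847 and 2072 TPM. Both genes overlapped between the sets. Inside the thresholds, tumor 7 had the lowest Epcam and tumor 5 the lowest Met, at 1468 TPM. Of the 3 tumors left out, tumor 8 had 2.03 TPM of Epcam with 1251 TPM of Met, tumor 9 had 914 TPM of Epcam with 78.3 TPM of Met, and tumor 2 had no Epcam and 1.13 TPM of Met.

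Which other genes went with the collagen ranking was asked by a test of 16363 genes with a mean of 1 TPM or more over the 9 tumors, the 3 ranking genes left out. Tumors of 1 mouse within a set were averaged first, so that 3 stroma-rich were compared with 3 stroma-poor mouse values. With limma's moderated test, 1 gene passed a Benjamini-Hochberg adjusted p of 0.05 as higher in the stroma-rich tumors (0.00611% of the genes tested) and 0 genes passed as lower (0%). At an unadjusted p under 0.05 there were 433 higher and 441 lower genes, together 5.34% of all. The median difference over all genes was -0.02. The groups are a ranking of tumors and not a treatment, so a p here is about association with that ranking. With so few calls, the genes below are described by their value in each tumor and by whether the 4 stroma-rich tumors all lay above or all lay below the 4 stroma-poor ones. The 41 gene lists used below held 536 genes, of which 478 passed the filter. Of these, 22 had a mean under 1 TPM in the stroma-poor tumors and 11 in the stroma-rich tumors, and passed only through the set in which they were high, so the counts and medians over the lists are descriptions. Beside each list median stand, in brackets, its lowest and highest value over up to 20 alternatives (other filters, pseudocounts, scalings and tumor sets, and the mouse as a random block, but not the slope on the collagen score, which is another quantity). The sign held in all of them for 21 of the 41 lists. Of all genes tested, 2.99% (489) lay entirely above and 3.98% (652) entirely below. Differences on the log2(TPM + 1) scale understate the fold change of genes near 0.

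The gene that passed was Dmkn, which encodes dermokine, a secreted protein known from the upper layers of the skin (ENSMUSG00000060962, chromosome 7 from 30763756 to 30781063, plus strand). It was at 35.1, 33.9, 27.9 and 25.9 TPM in the stroma-rich tumors and at 0, 14.4, 1.50 and 2.03 TPM in the stroma-poor tumors. All stroma-rich tumors stood above all stroma-poor ones, and the highest of the latter, tumor 12, shared its mouse with tumor 10, at 25.9 TPM, and with tumor 11, which was listed at 0. The middle tumor 5, which entered no test, was at 9.83 TPM. The mean was 29.4 ± 4.52 against 3.57 ± 3.14 TPM (SD, n = 3 mice in each set), and Dmkn rose by 3.29 ± 0.27 (SE) with limma (adjusted p = 0.0497). With the mouse as a random block, which takes account of the mouse that gave tumors to both sets, Dmkn did not pass (difference 3.01, limma, adjusted p = 0.158). The call was also lost without any 1 of the 8 tumors, although the difference stayed positive, between 2.63 and 4.19 over the 20 alternatives that give it. Among the stroma-rich tumors its values lay closer together than those of any of the 3 ranking genes.

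The promoter of Dmkn is shown with those of the ranking genes because Dmkn alone passed the test. Each line gives the 125 bases before the transcription start in RefSeq on GRCm38.p6, 5′ to 3′ on the gene's strand, with matches to a TATA-like motif (TATAA, or TTATA on the opposite strand), an AP-1 motif (TGAGTCA or TGACTCA) or a CCAAT box (CCAAT or ATTGG) in capitals. Of 4 genes looked up, 3 were in the promoter table, and Col1a1 was not. For Col1a2 the RefSeq start, at 4505618, lies downstream of the GENCODE gene start given above, so its stretch lies inside that gene span.
Dmkn, chr7:30763631-30763755, plus strand: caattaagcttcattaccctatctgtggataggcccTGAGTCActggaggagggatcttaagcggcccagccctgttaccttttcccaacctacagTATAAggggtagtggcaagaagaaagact
Col1a2, chr6:4505493-4505617, plus strand: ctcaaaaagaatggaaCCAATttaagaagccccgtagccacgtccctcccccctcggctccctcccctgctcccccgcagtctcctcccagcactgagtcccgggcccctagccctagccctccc
Col3a1, chr1:45311413-45311537, plus strand: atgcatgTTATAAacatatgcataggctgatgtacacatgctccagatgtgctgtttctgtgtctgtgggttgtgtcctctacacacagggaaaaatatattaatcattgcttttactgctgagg
The Dmkn stretch held an AP-1 motif that begins at position -89 and a TATA-like motif at -29, the Col1a2 stretch a CCAAT box at -109, and the Col3a1 stretch overlapping TATA-like motifs on the opposite strand at -118 and on its own strand at -117. In the same window a TATA-like motif was present in 12.3% of 32851 promoters, the AP-1 motif in 2.43% and the CCAAT box in 21.9%. A match describes these letters and does not show that a factor binds there.

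Genes of the matrix itself mostly had positive differences, and none of them passed the test. These lists, like those of fibroblasts and contractile stroma, belong to the same compartment as the ranking genes, so their direction is not independent of the ranking. Of 7 other fibrillar collagens tested, 6 had a positive difference (median 0.83 [0.36 to 1.26]), and the sets overlapped in all of them. Col5a1, which nucleates collagen I fibrils, was at 76.6, 30.8, 35.3 and 16.5 TPM in the stroma-rich tumors and at 21.0, 14.9, 10.9 and 5.73 TPM in the stroma-poor tumors. Its partner chain Col5a2 was at 165, 74.1, 57.9 and 63.5 against 70.2, 60.2, 44.5 and 24.3 TPM. Tumor 4 stood out in both, and tumor 10 did not exceed tumor 11 in either. Col11a2, a minor fibrillar chain best known from cartilage, was at 8.99, 11.1, 33.8 and 1.68 against 3.35, 0.966, 1.44 and 1.46 TPM, with tumor 1 the highest. The differences of these genes were 1.47 ± 0.50 (SE), 0.83 ± 0.42 (SE) and 1.96 ± 0.81 (SE), with an adjusted p of 0.888 each.

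The 21 network-forming and fibril-associated collagens went both ways, with 13 positive differences and a median of 0.62 [0.26 to 0.91], lowest without tumor 7. All stroma-rich tumors lay above the stroma-poor ones in 2 of them. One was Col10a1, a short network-forming chain, at 5.53, 9.08, 7.19 and 11.6 TPM in the stroma-rich tumors and at 2.95, 1.56, 1.11 and 4.16 TPM in the stroma-poor tumors. Col7a1, the chain of the anchoring fibrils beneath epithelia, was at 39.9, 25.0, 69.2 and 24.6 against 19.2, 22.7, 27.9 and 3.48 TPM, highest in tumor 1, with tumor 6 above tumors 3 and 10. Against this direction, Col9a1, a fibril-associated chain, was at 1.66, 1.89, 49.5 and 15.9 against 184, 138, 74.6 and 46.1 TPM. Only tumor 1 among the stroma-rich tumors exceeded the lowest stroma-poor value of Col9a1, and its difference was -2.64 ± 0.99 (SE), against 1.53 ± 0.38 (SE) for Col10a1 (limma, adjusted p = 0.888 and 0.855). Without the mouse of tumors 3 and 4 the Col9a1 difference was -1.51. Col25a1, a membrane-bound collagen, was at 1.81, 1.99, 0.665 and 4.82 against 14.4, 26.5, 3.80 and 7.64 TPM, with tumor 10 above tumor 6.

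Enzymes that modify and cross-link collagen mostly had positive differences. Of 30 tested, 23 had a positive difference (median 0.35 [0.079 to 0.66]) and 4 separated the sets. Lox, the founding lysyl oxidase, was at 47.9, 23.4, 16.5 and 15.2 TPM in the stroma-rich tumors and at 12.6, 11.3, 7.26 and 2.61 TPM in the stroma-poor tumors. Its relative Loxl1 was at 67.1, 26.7, 15.4 and 17.0 against 12.2, 12.7, 8.03 and 2.51 TPM. In both genes the 4 stroma-rich tumors lay above the 4 stroma-poor ones by a narrow margin, and the differences were 1.56 ± 0.51 (SE) and 1.64 ± 0.57 (SE) (limma, adjusted p = 0.888 for both).

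The 40 matrix glycoproteins and proteoglycans had 32 positive differences and a median of 0.71 [0.48 to 0.96], which was 0.48 without the mouse of tumors 3 and 4. All stroma-rich tumors lay above in 5 genes and below in 1. Cthrc1, a secreted protein of collagen-producing fibroblasts, was at 51.0, 17.8, 23.6 and 18.9 TPM in the stroma-rich tumors and at 10.7, 7.14, 3.02 and 3.90 TPM in the stroma-poor tumors. Eln, the precursor of elastic fibres, was at 110.4, 26.6, 22.4 and 49.4 against 12.3, 17.7, 11.3 and 3.44 TPM. These 2 genes separated the sets, with differences of 2.10 ± 0.38 (SE) and 2.08 ± 0.54 (SE) (limma, adjusted p = 0.754 and 0.871). Dcn, the small proteoglycan decorin that binds collagen fibrils, was at 285, 88.2, 31.1 and 57.5 against 13.0, 52.5, 15.0 and 2.58 TPM. Lum, the related lumican, was at 144, 36.4, 13.6 and 19.7 against 4.33, 15.3, 10.2 and 2.19 TPM. Both overlapped between the sets because tumor 12 exceeded tumor 1, and both spanned more than the ranking genes did. Tumor 4 was the highest of the 9 tumors in 22 of the 40 genes, against 7.53% of all genes tested, and tumor 7 the lowest in 19, against 12.3% of all genes.

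Fibroblast genes differed among themselves. Of 20 tested, 17 had a positive difference (median 0.53 [0.32 to 0.61]) and 5 separated the sets, with none passing the test. Dpt, the matrix protein dermatopontin, was at 73.0, 46.7, 13.8 and 33.5 TPM in the stroma-rich tumors and at 5.74, 10.3, 2.38 and 0.501 TPM in the stroma-poor tumors. Clec3b, which encodes tetranectin, was at 27.0, 25.1, 11.8 and 21.0 against 2.48, 6.98, 2.38 and 0 TPM. Tumor 7 was the lowest in each and tumor 1 the lowest of the stroma-rich tumors, and the differences were 3.14 ± 0.72 (SE) and 2.91 ± 0.61 (SE) (limma, adjusted p = 0.831 and 0.777). Pi16, a marker of adventitial fibroblasts, was at 27.6, 22.4, 5.95 and 17.5 against 3.09, 4.84, 5.36 and 2.80 TPM, and Islr, a marker of mesenchymal stromal cells, was at 33.8, 14.6, 8.56 and 11.4 against 7.27, 5.12, 3.58 and 2.33 TPM. These too did not overlap. The receptors and proteases most used to define fibroblasts did: Pdgfra was at 26.6, 10.4, 7.97 and 3.38 against 5.17, 3.93, 8.46 and 2.25 TPM, Pdgfrb was at 32.5, 19.1, 16.6 and 19.7 against 26.6, 22.9, 17.6 and 14.3 TPM, and Fap, fibroblast activation protein, was at 12.7, 7.57, 5.04 and 6.23 against 6.35, 4.53, 3.58 and 3.37 TPM. Their differences were 0.68 ± 0.57 (SE), 0.12 ± 0.29 (SE) and 0.63 ± 0.31 (SE) (limma, adjusted p = 0.928, 0.987 and 0.888), and that of Pdgfrb turned to -0.03 without the mouse of tumors 3 and 4. Tumor 4 was the highest of the 9 in 16 of the 20 genes and exceeded tumor 3 of the same mouse in 19.

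Of the contractile genes some followed the collagen order, and most pericyte genes did not. Tagln, the actin-binding protein of smooth muscle and of contractile fibroblasts, was at 195, 113, 95.1 and 75.0 TPM in the stroma-rich tumors and at 65.2, 49.4, 41.5 and 25.2 TPM in the stroma-poor tumors. Its order over the 9 tumors was exactly that of the collagen ranking, with tumor 5 at 67.2 TPM, and its difference was 1.36 ± 0.38 (SE) (limma, adjusted p = 0.888). Acta2, smooth muscle actin, was at 194, 141, 104 and 78.7 against 86.3, 72.8, 50.4 and 46.6 TPM, and Cnn1, calponin, was at 6.13, 3.74, 8.18 and 1.90 against 1.68, 1.29, 1.15 and 0.483 TPM. Cnn1 separated the sets and Acta2 did not, since tumor 11 exceeded tumor 10. Over the 12 contractile genes 7 differences were positive (median 0.39 [-0.0017 to 0.67]), with 3 genes separating the sets. The median was 0.13 without the mouse of tumors 3 and 4, 0.041 without tumor 7 and -0.0017 with the mouse as a random block. Of 10 pericyte genes 4 had a positive difference (median -0.20 [-0.41 to -0.036]). Kcnj8, a potassium channel subunit of pericytes, was at 5.81, 4.74, 3.28 and 6.68 against 11.4, 14.8, 7.15 and 9.58 TPM, the only one of the list with all stroma-rich tumors below. Rgs5, the usual pericyte marker, was at 32.7, 27.6, 7.98 and 23.4 against 25.3, 26.5, 18.9 and 39.3 TPM and overlapped.

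**Figure D2:**
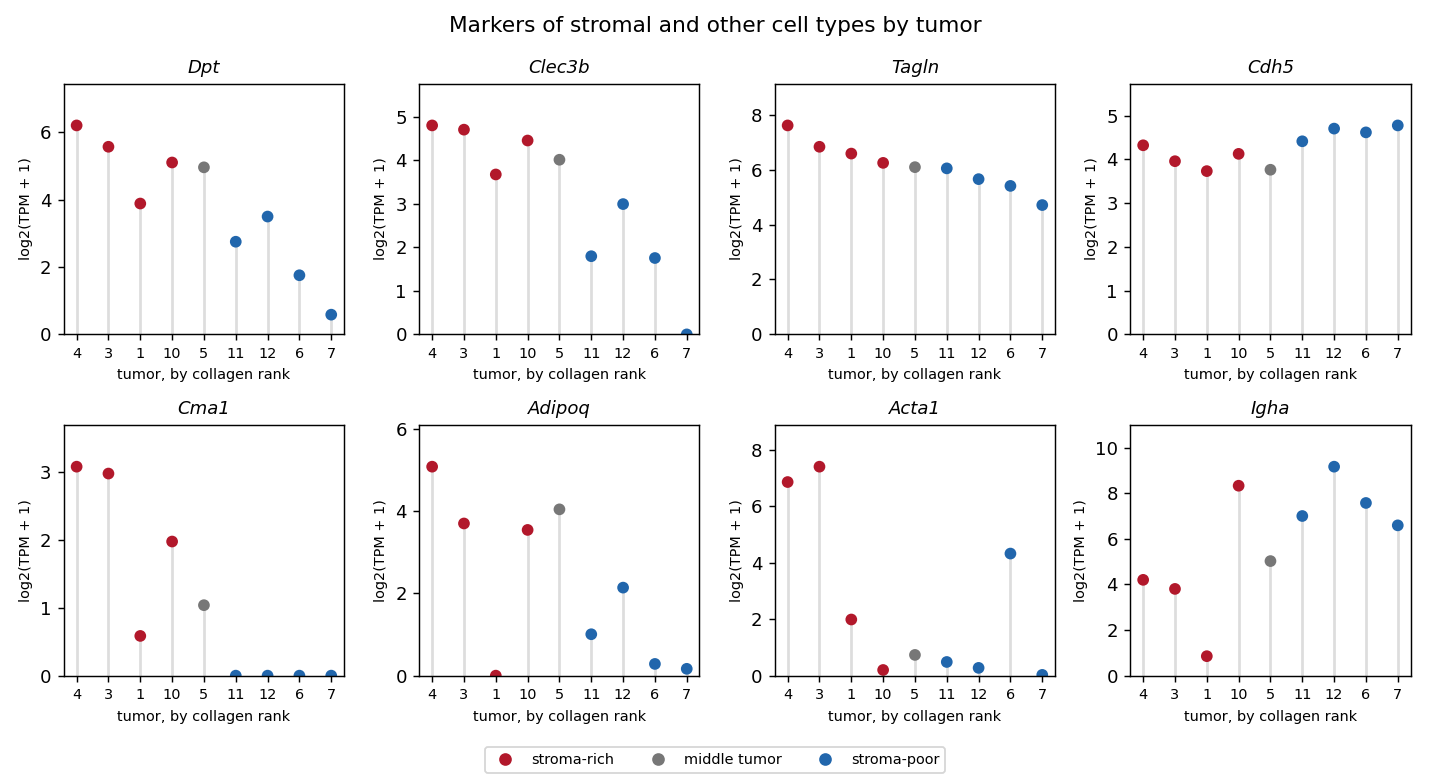
Level of 8 cell type markers, log2(TPM + 1), in the 9 tumors ordered by collagen rank; each point is 1 tumor with a line to 0, and colour gives the set. Dpt, Clec3b and Tagln lie above the stroma-poor values in all 4 stroma-rich tumors and Cdh5 lies below, Cma1 is listed at 0 in all stroma-poor tumors, Adipoq is listed at 0 in tumor 1, Acta1 is above 100 TPM in tumors 3 and 4 and under 20 TPM elsewhere, and Igha is at 0.807 TPM in tumor 1.

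Signals that act on stroma had no common direction. Of 10 TGF-beta family ligands and activators 7 had a positive difference (median 0.10 [0.038 to 0.27]). Inhba, which forms activin A, was at 12.1, 12.0, 61.1 and 37.0 TPM in the stroma-rich tumors and at 9.51, 12.3, 12.8 and 7.12 TPM in the stroma-poor tumors, highest in tumors 1 and 10 and alike in the others. Among 13 receptors and Smads (median -0.10 [-0.10 to 0.18]), the co-receptor Tgfbr3 was at 7.90, 2.73, 1.16 and 2.63 against 12.7, 15.9, 7.00 and 20.5 TPM, and Smad3, a transducer of the pathway, was at 65.0, 77.4, 52.1 and 39.8 against 46.0, 23.3, 23.6 and 35.2 TPM. Tumor 4 and tumor 6 made the sets overlap for Tgfbr3, and its difference was -1.95 ± 0.48 (SE), against 0.79 ± 0.30 (SE) for Smad3 (limma, adjusted p = 0.855 and 0.888). Of 13 inhibitors and targets 9 were positive (median 0.10 [0.036 to 0.27]), and the inhibitor Ski, at 56.8, 60.1, 48.6 and 62.0 against 88.4, 68.7, 87.6 and 69.9 TPM, was the one gene among them with all stroma-rich tumors below. The 5 PDGF genes (median 0.53 [-0.072 to 0.84]) included the ligand Pdgfd, at 2.38, 1.23, 0.905 and 1.000 against 5.48, 8.50, 7.05 and 1.14 TPM, and the receptor-like Pdgfrl, at 24.7, 11.0, 13.6 and 19.7 against 12.9, 9.79, 12.8 and 3.83 TPM. Both overlapped, and the median of the list was -0.072 without tumor 1 and -0.055 with the mouse as a random block.

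Among 16 growth factors 9 had a positive difference (median 0.07 [-0.14 to 0.26]) and 2 lay entirely below in the stroma-rich tumors. One was Kitl, the ligand of the receptor Kit and a growth factor for mast cells, at 8.64, 6.68, 6.66 and 13.0 TPM in the stroma-rich tumors and at 47.3, 60.3, 16.9 and 23.5 TPM in the stroma-poor tumors. The other was Angpt1, a ligand of the endothelial receptor Tie2, at 2.22, 0.503, 0.573 and 1.39 against 2.91, 14.4, 3.23 and 4.03 TPM. The middle tumor 5 had 46.7 TPM of Kitl and 3.90 TPM of Angpt1, both at stroma-poor levels, and the differences were -1.56 ± 0.45 (SE) and -1.44 ± 0.32 (SE) (limma, adjusted p = 0.888 and 0.816). Vegfc, a lymphatic growth factor, was at 8.64, 2.10, 1.85 and 13.1 against 8.96, 16.4, 16.3 and 13.9 TPM, and Areg, the EGF receptor ligand amphiregulin, was at 162, 191, 82.7 and 44.7 against 11.4, 13.1, 30.2 and 81.7 TPM. Areg was highest in tumors 3 and 4, but tumor 7 had nearly the level of tumor 1.

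Of 16 Wnt ligands and antagonists 10 had a positive difference (median 0.30 [0.060 to 0.63]). The secreted antagonists Sfrp2 and Sfrp4, both made by fibroblasts, were the 2 that separated the sets. Sfrp2 was at 29.9, 17.2, 3.37 and 6.18 TPM in the stroma-rich tumors and at 1.15, 2.32, 1.17 and 0 TPM in the stroma-poor tumors, and Sfrp4 was at 9.43, 9.74, 4.43 and 4.66 against 2.17, 3.13, 1.06 and 0 TPM. Tumor 7 was listed at 0 for both. The ligand Wnt2 was at 6.22, 0.455, 5.18 and 2.43 against 0.455, 0.887, 0.384 and 0.131 TPM, where tumor 3 was as low as the stroma-poor tumors and far below tumor 4 of its own mouse. The differences of Sfrp2 and Sfrp4 were 2.33 ± 0.65 (SE) and 1.82 ± 0.50 (SE) (limma, adjusted p = 0.888 for both). Wnt2 had a mean under 1 TPM in the stroma-poor tumors and passed the filter only through the stroma-rich ones, so no test is given for it.

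Proteases and matrix receptors were split in direction. Of 22 metalloproteinases and inhibitors 11 had a positive difference (median 0.02 [-0.20 to 0.19]). Adamts1, a protease of proteoglycans, was at 68.0, 80.5, 66.6 and 59.7 TPM in the stroma-rich tumors and at 36.0, 41.8, 15.9 and 21.0 TPM in the stroma-poor tumors and separated the sets by 1.46 ± 0.35 (SE) (limma, adjusted p = 0.855). Mmp13, a collagenase, was at 73.0, 12.2, 6.42 and 4.88 against 22.3, 38.7, 106 and 21.8 TPM: low in tumors 3, 1 and 10, but at a stroma-poor level in tumor 4. Of 21 receptors 10 had a positive difference (median -0.04 [-0.22 to 0.26]). The collagen-binding integrin Itga11 was at 3.09, 2.41, 8.05 and 1.29 against 0.787, 0.264, 0.663 and 0.336 TPM, all stroma-rich tumors above, and it passed the filter only through these, so no test is given for it. Dag1, the laminin receptor dystroglycan, was at 48.0, 49.1, 134 and 136 against 345, 354, 158 and 149 TPM, all below. Sdc2, the proteoglycan syndecan 2, was at 34.0, 6.92, 12.1 and 11.0 against 33.5, 49.8, 32.7 and 28.6 TPM, with tumor 4 alone at a stroma-poor level. The differences of Dag1 and Sdc2 were -1.07 ± 0.50 (SE) and -1.33 ± 0.26 (SE) (limma, adjusted p = 0.888 and 0.754).

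Blood vessel genes did not follow the collagens. Of 18 endothelial genes 5 had a positive and 13 a negative difference (median -0.25 [-0.42 to -0.12], and -0.42 without the mouse of tumors 3 and 4). Cdh5, the cadherin of endothelial junctions, was at 19.0, 14.5, 12.3 and 16.5 TPM in the stroma-rich tumors and at 20.3, 25.1, 23.5 and 26.4 TPM in the stroma-poor tumors, all stroma-rich tumors below. It was the only 1 of the 18 to separate the sets, while 3.98% of all genes tested lay entirely below. Cldn5, the endothelial claudin, was at 11.0, 2.65, 2.21 and 5.05 against 10.6, 14.5, 26.7 and 13.6 TPM, with tumor 4 just above tumor 11. The differences were -0.65 ± 0.24 (SE) and -1.80 ± 0.40 (SE) (limma, adjusted p = 0.888 and 0.816). Pecam1 was at 35.2, 24.7, 20.1 and 24.3 against 26.9, 34.5, 32.9 and 39.7 TPM, and Plvap, a protein of fenestrated capillaries, was at 42.9, 32.0, 19.5 and 27.3 against 33.9, 58.2, 46.4 and 30.7 TPM. Both overlapped, as tumor 4 exceeded tumor 11 and at least 1 other stroma-poor tumor. Tumor 4 exceeded tumor 3 in all 18 endothelial genes, so the tumor richest in collagen had more endothelial RNA than the other tumor of its mouse. The 3 lymphatic genes tested had a median of 0.82 [0.32 to 1.49], and 0.32 without that mouse.

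Leukocyte genes gave no common direction, and tumor 1 stood apart from the other stroma-rich tumors. Of 17 macrophage genes 9 had a positive difference (median 0.11 [-0.21 to 0.45]). The scavenger receptor Mrc1 was at 45.9, 15.5, 13.2 and 19.8 TPM in the stroma-rich tumors and at 8.40, 13.8, 13.0 and 4.66 TPM in the stroma-poor tumors, and the lysozyme Lyz2 was at 2016, 1151, 1203 and 1989.7 against 575, 687, 1616 and 578 TPM. Tumor 12 exceeded tumor 1 in Mrc1, and tumor 6 exceeded tumors 1 and 3 in Lyz2, so both overlapped. Dendritic cell genes (4, median 0.13 [-0.25 to 0.56]), neutrophil genes (6, median -0.32 [-1.02 to 0.45]) and B cell genes (2, median -0.11 [-0.67 to 0.22]) did not separate the sets. All 8 T and NK cell genes had a negative difference (median -0.28 [-0.90 to 0.15]), with summed levels of 25.6, 11.1, 6.27 and 35.1 TPM in the stroma-rich tumors and 19.7, 36.9, 15.0 and 26.2 TPM in the stroma-poor tumors. Without tumor 1 the median was 0.15, and with the mouse as a random block -0.020. Tumor 1 was the lowest of the 9 in 6 of these genes and in 6 of 7 plasma cell genes. Igha, the constant region of IgA, was at 17.4, 13.0, 0.807 and 321 against 127, 573, 189 and 95.4 TPM, and the light chain Igkc was at 281, 61.4, 2.31 and 1481 against 329.9, 1166, 439 and 144 TPM. Tumors 10 and 12, from the same mouse and in different sets, were the highest in both. The Igkc difference of -1.98 was 0.38 without tumor 1. The plasma cell median of -0.79 [-1.36 to 0.083] was 0.083 without that tumor and -0.20 with the mouse as a random block.

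Mast cell proteases were at low levels in all tumors. Of 5 mast cell genes tested, 4 had a mean under 1 TPM in the stroma-poor tumors and passed the filter only through the stroma-rich ones, so their count and median (all positive, 1.41 [0.017 to 3.22]) support nothing. The median was 3.22 with a pseudocount of 0.1, and at a mean of 5 TPM or more only Kit was left, at 0.017. Cma1, a mast cell chymase, was at 7.46, 6.89, 0.501 and 2.94 TPM in the stroma-rich tumors and was listed at 0 in all 4 stroma-poor tumors. Mcpt4, another chymase, was at 9.69, 8.10, 0.573 and 3.06 TPM in the stroma-rich tumors and at 0.376, 0, 0.465 and 0 TPM in the stroma-poor tumors, and Cpa3, carboxypeptidase A3, was at 5.39, 3.21, 0.355 and 1.81 against 0.276, 0.323, 0.288 and 0.108 TPM. All were below 10 TPM in every tumor and lowest of the stroma-rich tumors in tumor 1, and tumor 5 had 1.05 TPM of Cma1. The sum over the list, most of which was the receptor Kit that epithelial cells also make, was 63.9, 70.2, 21.5 and 67.4 TPM against 70.3, 68.9, 22.1 and 30.3 TPM. Without the mouse of tumors 3 and 4 the median of the list was 0.81.

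Markers of the fat pad and of muscle were highest in tumors 4 and 3 respectively. Fat cell genes had a median difference of 1.40 [0.71 to 2.42] over 7 genes, 6 of them positive, and 0.71 without the mouse of tumors 3 and 4. Adipoq, the fat cell hormone adiponectin, was at 32.7, 11.9, 0 and 10.6 TPM in the stroma-rich tumors and at 1.01, 3.40, 0.218 and 0.122 TPM in the stroma-poor tumors. Cfd, the complement protease adipsin, was at 163, 57.6, 0 and 59.2 against 4.12, 15.4, 1.05 and 0.338 TPM, and Fabp4, a fatty acid carrier of fat and endothelial cells, was at 284, 107, 12.4 and 72.2 against 21.1, 59.6, 13.0 and 17.5 TPM. Tumor 4 was the highest of the 9 in all 7 genes, while stroma-rich tumor 1 was listed at 0 for Adipoq and Cfd. Summed over the list, the level was 545, 198, 14.8 and 159 TPM in the stroma-rich tumors and 34.2, 92.7, 20.3 and 24.2 TPM in the stroma-poor tumors, and its part in the differences of the fibroblast and matrix genes was not tested.

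Skeletal muscle genes had a median difference of 1.35 [0.011 to 2.02] over 7 genes, 4 of which passed the filter only through the stroma-rich tumors, and it was 0.01 without the mouse of tumors 3 and 4. Acta1, skeletal actin, was at 115, 168, 2.96 and 0.149 TPM in the stroma-rich tumors and at 0.398, 0.210, 19.0 and 0.0188 TPM in the stroma-poor tumors, and the troponin Tnnt3 was at 35.9, 48.0, 0.941 and 0 against 0.668, 0.561, 1.33 and 0 TPM. These 2 genes were high in both tumors of 1 mouse and far lower in the others, with tumor 6 next for Acta1. The sums over the list were 298, 432, 32.5 and 23.8 TPM against 13.9, 8.78, 61.4 and 48.2 TPM. Without that mouse the differences of Acta1 and Tnnt3 turned to -0.48 and -0.16. Red cell genes had 5 positive differences of 5 (median 1.09 [0.79 to 1.39], and 0.99 without that mouse). Hba-a2, an alpha globin whose reads may be shared with its near-identical copy Hba-a1, was at 234, 91.6, 90.2 and 124 against 82.3, 23.3, 50.3 and 37.7 TPM. Tumor 4 was the highest of the 9 in all 5 red cell genes.

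**Figure D3:**
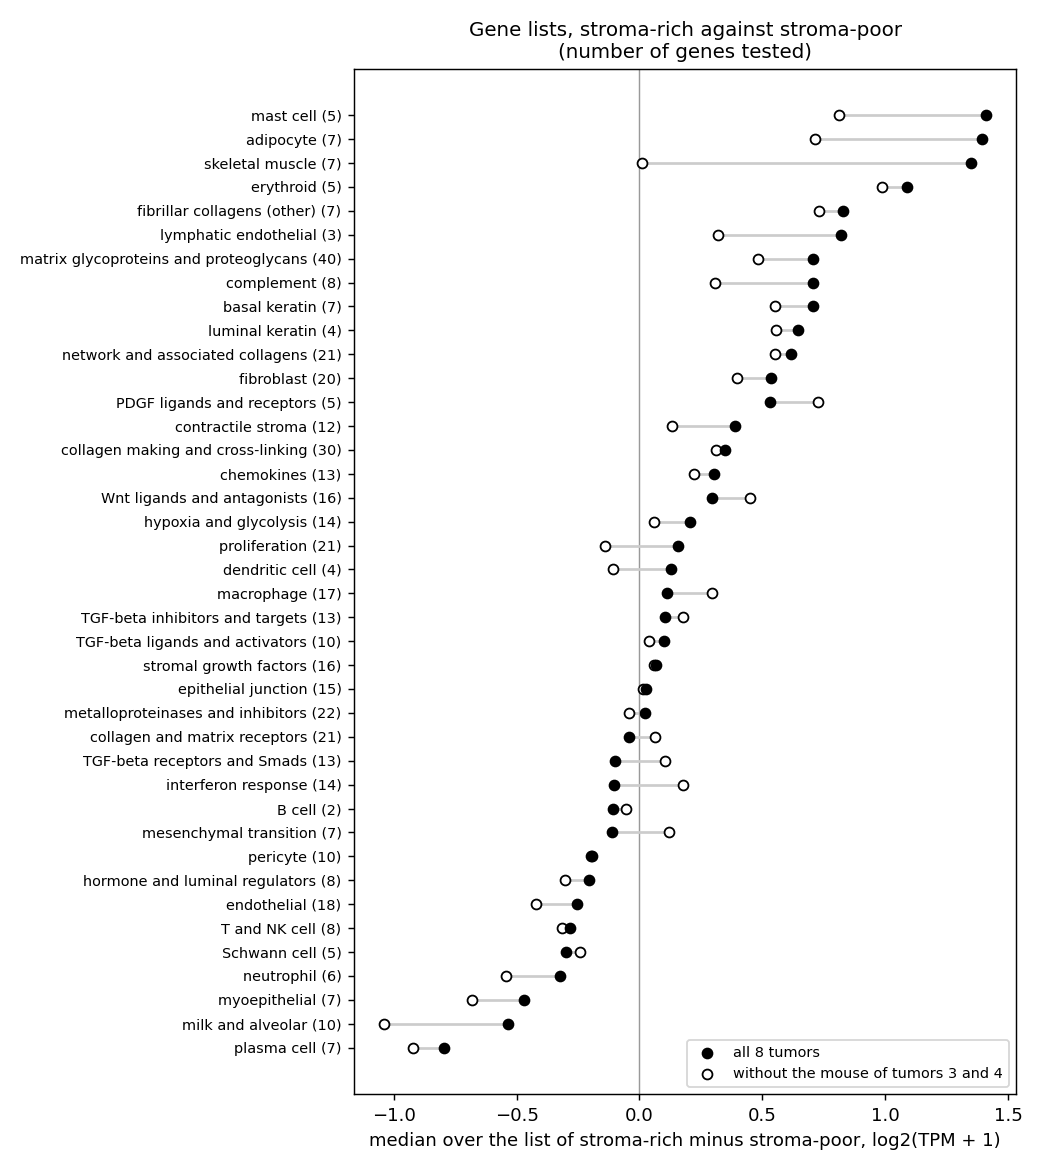
Median over each gene list of the difference stroma-rich minus stroma-poor, log2(TPM + 1), with all 8 tumors (filled) and without the mouse of tumors 3 and 4 (open); the number of genes tested is in brackets there are no error bars, and the genes taken from the study are left out. With all tumors, mast cell, fat cell and skeletal muscle genes lie close together at 1.41, 1.40 and 1.35, and the last is at 0.01 without that mouse, and plasma cell genes lie at -0.79; the order of these lists differs between alternatives, and the plasma cell median was 0.083 without tumor 1.

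Chemokines and complement were examined as products of both stroma and tumor. Of 13 chemokines 9 had a positive difference (median 0.30 [-0.17 to 0.94]). Ccl20, made by epithelial cells, was at 1.86, 2.45, 1.90 and 0.956 TPM in the stroma-rich tumors and at 8.00, 5.12, 3.83 and 25.0 TPM in the stroma-poor tumors, all stroma-rich tumors below, with a difference of -1.90 ± 0.59 (SE) (limma, adjusted p = 0.888). Ccl8, mainly a macrophage product, was at 322, 249, 24.4 and 142 against 73.5, 158, 26.2 and 10.4 TPM and overlapped. Of 8 complement genes 7 had a positive difference (median 0.71 [0.31 to 1.11], and 0.31 without the mouse of tumors 3 and 4). C3, the central component, was at 126, 131, 523 and 176 against 101, 44.7, 258 and 68.9 TPM, with tumor 6 above 3 of the 4 stroma-rich tumors. The component C4b was at 58.6, 36.3, 16.5 and 32.9 against 18.1, 28.2, 14.0 and 6.81 TPM, and the inhibitor Serping1 was at 164, 107, 41.7 and 93.8 against 54.6, 66.8, 39.1 and 29.2 TPM. Tumor 1 was the lowest stroma-rich tumor in these last 2 genes and the highest in C3.

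Among epithelial genes those of junctions had a median difference near 0, and the keratin medians rested on few tumors. The 15 junction genes had a median difference of 0.03 [-0.13 to 0.093] with 8 positive, and their summed level was 2124, 2873, 2634 and 2312 TPM in the stroma-rich tumors and 2209, 2208, 2148 and 2890.1 TPM in the stroma-poor tumors. Tumor 4 was below tumor 3 in all 15. Luminal keratins had a median of 0.65 [0.058 to 1.03] over 4 genes, all positive. It was 0.058 with the mouse as a random block, and 0.32 without tumor 1 and 0.33 without tumor 7. Krt7 was at 209, 267, 829 and 542 TPM in the stroma-rich tumors and at 326, 202, 227 and 284 TPM in the stroma-poor tumors, Krt8 was at 1678, 2192, 3128 and 1176 against 1576, 1783, 1526 and 799 TPM, and Krt18, its partner, was at 1971, 2573, 2635 and 922 against 1376, 1162, 1413 and 718 TPM. Each overlapped, with tumor 1 the highest in all 3. Of 7 basal keratins 6 were positive (median 0.71 [0.21 to 1.01], with 0.21 without tumor 1 and 0.21 without tumor 11), and Krt5, the basal cell keratin, was at 13.4, 8.29, 8.47 and 2.21 against 0.195, 11.1, 2.42 and 1.07 TPM. Tumor 12 was at a stroma-rich level of Krt5 and tumor 10 at a stroma-poor one, in the same mouse.

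Myoepithelial genes lay on both sides. Trp63, which encodes p63, the transcription factor of basal and myoepithelial cells (ENSMUSG00000022510, chromosome 16 from 25683763 to 25892102, plus strand), was at 0.716, 0.312, 0.454 and 0.551 TPM in the stroma-rich tumors and at 3.01, 15.5, 14.2 and 13.6 TPM in the stroma-poor tumors. No stroma-rich tumor reached 1 TPM and no stroma-poor tumor was below 3 TPM. The mean was 0.506 ± 0.0487 against 12.3 ± 2.70 TPM (SD, n = 3 mice in each set). Trp63 passed the filter only through the stroma-poor tumors, in which it was high, and did not pass the test, so its levels are a description. Mme, a surface peptidase (CD10) of myoepithelial and luminal progenitor cells, was at 4.39, 0.740, 2.22 and 2.41 against 38.0, 41.2, 10.6 and 58.9 TPM, with a difference of -3.24 ± 0.56 (SE) (limma, adjusted p = 0.754). The middle tumor 5 had 5.48 TPM of Trp63 and 58.7 TPM of Mme, both at stroma-poor levels, although its collagen score was 0.11 below that of tumor 10. Within the mouse of tumors 10 to 12, tumor 10 had 2.41 TPM of Mme and the others 38.0 and 41.2 TPM, at nearly equal collagen scores. Over the 7 genes of the list 3 differences were positive, 2 genes lay entirely above, among them Cnn1, and 2 entirely below. The median of the list was -0.47 [-3.02 to 0.51]. It was -1.57 with the mouse as a random block and 0.51 without the mouse of tumors 10 to 12.

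Milk and alveolar genes (10 tested, 4 positive, median -0.53 [-1.52 to -0.028]) did not separate the sets. The casein Csn1s1 was at 186, 224, 4.21 and 11.5 TPM in the stroma-rich tumors and at 437, 1051, 592 and 9.74 TPM in the stroma-poor tumors, low in tumors 1, 10 and 7. Hormone and luminal regulators (8 tested, 2 positive, median -0.21 [-0.44 to 0.14]) included the growth factor receptor Erbb2, at 22.4, 27.8, 48.7 and 36.3 against 80.3, 66.3, 45.2 and 65.7 TPM, and the oestrogen receptor Esr1, at 1.92, 1.29, 0.123 and 0.986 against 2.29, 1.55, 2.98 and 1.02 TPM. In Erbb2 only tumor 6 kept the sets from separating, and the other 3 stroma-poor tumors lay above all stroma-rich ones. The progesterone receptor gene Pgr had a mean under 1 TPM and was not tested. Mesenchymal transition genes (7, median -0.11 [-0.26 to 0.12]), interferon response genes (14, median -0.10 [-0.66 to 0.18]) and Schwann cell genes (5, median -0.30 [-0.58 to 0.0093]) had negative medians whose sign turned under at least 1 alternative.

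The 21 proliferation genes had a median difference of 0.16 [-0.14 to 0.31], which was -0.14 without the mouse of tumors 3 and 4, with 2 entirely above and 2 entirely below. Mcm5, a subunit of the replicative helicase, was at 124, 160.2, 85.9 and 111 TPM in the stroma-rich tumors and at 65.8, 77.0, 53.8 and 77.1 TPM in the stroma-poor tumors, whereas Aurkb, a mitotic kinase, was at 38.4, 35.3, 25.9 and 38.9 against 58.3, 63.1, 51.0 and 52.5 TPM. Top2a, topoisomerase II, was at 136, 131, 134 and 131 against 215, 198, 137 and 326 TPM. Genes of replication and of mitosis in this list thus included members that separated the sets in opposite directions, by 0.72 ± 0.28 (SE), -0.69 ± 0.26 (SE) and -0.65 ± 0.34 (SE) (limma, adjusted p = 0.888 for each). Mki67, a marker of cycling cells, was at 102, 123, 42.4 and 71.2 against 74.6, 74.1, 63.0 and 85.1 TPM, with no separation. Of 14 hypoxia and glycolysis genes 9 were positive (median 0.21 [0.058 to 0.61]), and Pfkp, the platelet-type phosphofructokinase, was at 126, 156, 214 and 191 against 75.7, 57.0, 91.8 and 89.5 TPM, all stroma-rich tumors above, with a difference of 1.13 ± 0.27 (SE) (adjusted p = 0.855).

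Of 9 genes taken from the study's own account of its tumors, 2 lay entirely lower in the stroma-rich tumors. The 9 include Met, a gene of the selection rule, and 3.98% of all genes tested lay entirely lower. Fgfr1, a fibroblast growth factor receptor, was at 69.9, 15.4, 182 and 137 TPM in the stroma-rich tumors and at 359.7, 584, 228 and 218 TPM in the stroma-poor tumors, and the oncogene Myc was at 62.6, 66.6, 71.9 and 83.2 against 123, 168, 94.6 and 88.2 TPM. The difference of Fgfr1 was -1.58 ± 0.64 (SE), and -0.84 without the mouse of tumors 3 and 4, in which both tumors were low. For Myc it was -0.54 ± 0.28 (SE) (limma, adjusted p = 0.888 for both). Rb1 was at 19.9, 21.7, 14.6 and 33.7 against 36.6, 46.3, 16.9 and 21.5 TPM and overlapped.

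Outside the lists, the genes described were the 10 with the largest positive and the 10 with the largest negative difference among genes with a mean of 10 TPM or more whose sets did not overlap. Being chosen for not overlapping, they are a description. Dmkn led the first group. C1qtnf3, a secreted relative of complement C1q, was at 95.9, 44.8, 13.8 and 14.9 TPM in the stroma-rich tumors and at 5.93, 3.75, 2.19 and 0.537 TPM in the stroma-poor tumors, and followed the collagen order except that tumor 10 was slightly above tumor 1. Chst11, which sulfates chondroitin chains, was at 36.3, 40.0, 26.3 and 30.6 against 11.7, 16.9, 11.8 and 2.91 TPM. Like Dmkn, the other 7 were not taken as matrix genes. B3galt5, a glycolipid and glycoprotein galactosyltransferase, was at 20.3, 24.8, 14.8 and 24.2 against 2.82, 3.77, 1.37 and 4.28 TPM, and its tight values gave 2.48 ± 0.36 (SE) (limma, adjusted p = 0.524). Spef1, a microtubule-binding protein of cilia, was at 17.9, 17.8, 46.0 and 21.2 against 4.33, 4.24, 4.89 and 7.36 TPM, with tumor 1 the highest. Fndc5, the precursor of irisin, was at 8.34, 13.1, 37.4 and 16.7 against 6.86, 1.31, 1.94 and 0.944 TPM, also highest in tumor 1. The orphan receptor Gpr153 was at 64.2, 68.1, 40.7 and 42.8 against 29.5, 14.4, 11.6 and 10.0 TPM, and the carbonyl reductase Cbr2 was at 59.6, 38.2, 60.1 and 21.9 against 6.79, 16.7, 16.8 and 5.52 TPM. Lyz1, a lysozyme whose reads may be shared with the closely related Lyz2, was at 44.3, 18.3, 21.3 and 47.7 against 4.23, 5.03, 15.9 and 5.69 TPM. The predicted gene Gm5152 was at 21.1, 28.0, 91.8 and 11.0 against 1.27, 0.605, 8.19 and 6.81 TPM, and was listed at 0 in tumor 5.

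Of the 10 genes with the largest negative differences, 1500015O10Rik was at 7.51, 7.21, 10.1 and 5.81 TPM in the stroma-rich tumors and at 91.0, 22.9, 40.0 and 287 TPM in the stroma-poor tumors. Kng2, a kininogen whose reads may be shared with its paralog Kng1, was at 7.08, 10.3, 4.64 and 6.57 against 27.4, 32.5, 46.0 and 50.6 TPM. Among the stroma-poor tumors its order was the reverse of the collagen order, tumor 5 lay between the sets at 15.0 TPM, and the difference was -2.50 ± 0.31 (SE) (limma, adjusted p = 0.346). Scd1, stearoyl-CoA desaturase, a lipid synthesis enzyme abundant in fat cells and in many tumors, was at 133, 112, 85.2 and 136 against 268, 265, 577 and 479.9 TPM, against the direction of the fat cell markers. Gpihbp1, which anchors lipoprotein lipase on capillary endothelium, was at 19.5, 12.0, 6.99 and 7.26 against 25.0, 40.1, 74.5 and 44.3 TPM, and Apln, the endothelial ligand apelin, was at 5.54, 5.25, 20.8 and 9.15 against 32.1, 35.9, 37.2 and 47.9 TPM. These 2 vessel genes were chosen for not overlapping. Of the 18 genes of the endothelial list only 1, Cdh5, lay entirely below. Il20rb, a receptor subunit for interleukin 20, was at 4.00, 3.94, 1.75 and 4.38 against 21.8, 30.1, 21.1 and 9.67 TPM, and Csf3, the neutrophil growth factor, was at 17.7, 25.3, 14.5 and 3.58 against 27.6, 44.7, 43.8 and 70.9 TPM. Cldn8, an epithelial claudin, was at 3.03, 3.20, 0.326 and 4.00 against 9.41, 30.2, 7.28 and 17.1 TPM, and Capsl, a calcium-binding protein, was at 3.35, 2.83, 6.68 and 6.56 against 19.9, 58.7, 25.0 and 10.6 TPM. Tumor 12 was the highest of the 8 in both. Gm20186 was below 1 TPM in the stroma-rich tumors and at 1.56, 1.10, 1.36 and 133 TPM in the stroma-poor tumors, and passed the filter only through tumor 7. Its difference of -2.45 was -0.50 without that tumor.

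**Figure D4:**
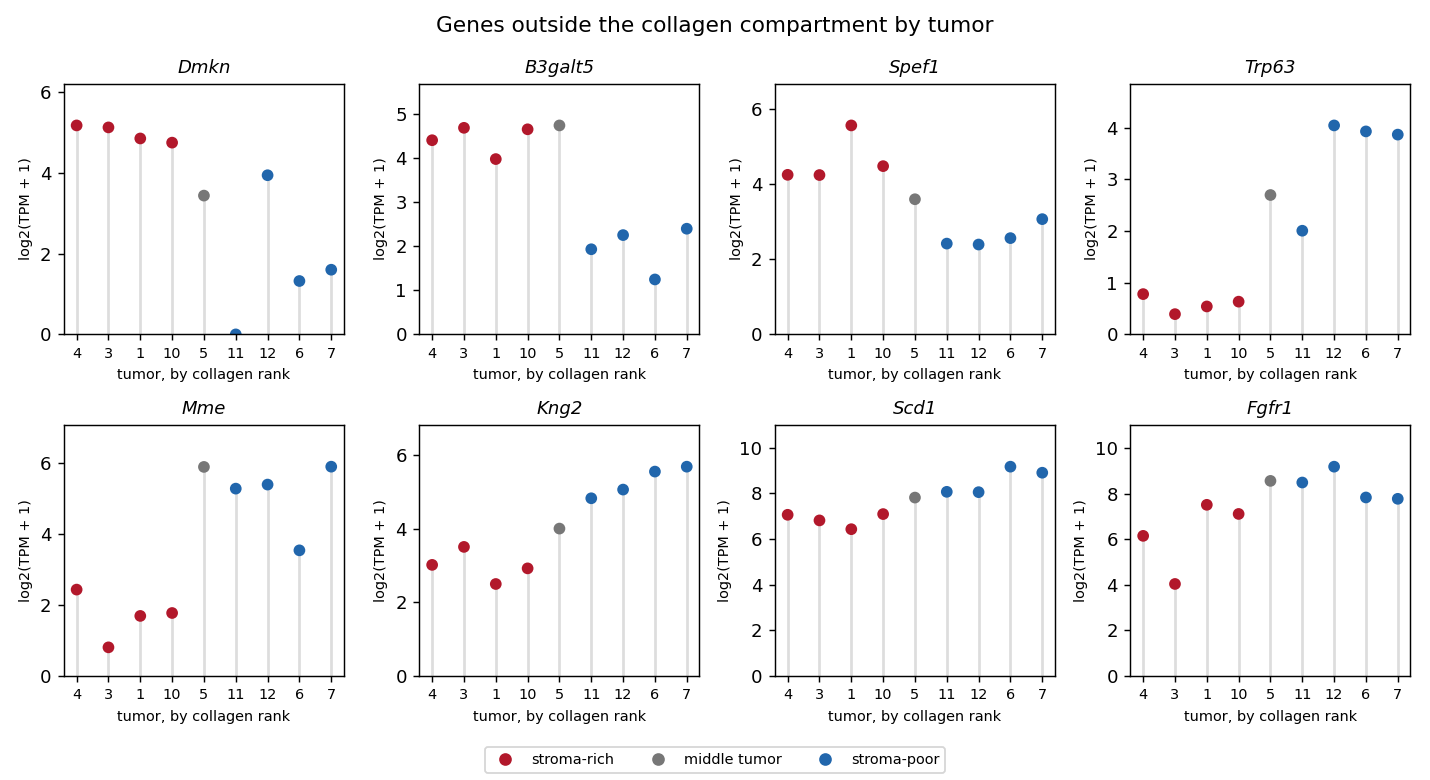
Level of 8 genes that are not part of the matrix, log2(TPM + 1), in the 9 tumors ordered by collagen rank; each point is 1 tumor with a line to 0, and colour gives the set. The sets do not overlap in any of the 8 genes, and the middle tumor 5 lies with the stroma-rich tumors for B3galt5, between the sets for Spef1, Kng2 and Scd1, and with the stroma-poor tumors for Dmkn, Trp63, Mme and Fgfr1.

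Treating the 8 tumors as units, with the mouse as a random block, took tumor 10 against tumors 11 and 12 as a comparison within 1 mouse. The estimated correlation between tumors of a mouse was 0.709. The collagen scores of tumors 11 and 12 lay 0.13 and 0.32 below that of tumor 10. At an unadjusted p under 0.05 the blocked fit had 1249 higher and 1678 lower genes, against 433 and 441 among mouse means (limma). After adjustment 6 genes passed in the blocked fit as higher (0.0367% of those tested) and 11 as lower (0.0672%), and Dmkn was not among them. B3galt5, Spef1, Kng2 and Il20rb were. The following were chosen after their values were seen. Cdkn1a, the cell cycle inhibitor p21 and a known target of p53, was at 69.7, 90.9, 74.0 and 52.5 TPM in the stroma-rich tumors and at 19.1, 16.5, 33.8 and 21.3 TPM in the stroma-poor tumors, and passed in the blocked fit with a difference of 1.53 ± 0.21 (SE, limma with the block, adjusted p = 0.0376). Among mouse means its adjusted p was 0.785. Pipox, a peroxisomal oxidase, was at 1.15, 2.15, 0.920 and 0.450 against 22.3, 22.8, 8.25 and 13.4 TPM, Gpc4, a heparan sulfate proteoglycan of the cell surface, was at 13.2, 11.2, 12.9 and 17.9 against 49.9, 48.0, 34.5 and 33.2 TPM, and Rassf3, a Ras-association protein, was at 35.4, 41.0, 37.8 and 43.2 against 89.3, 91.5, 83.1 and 79.7 TPM. All 3 lay entirely lower in the stroma-rich tumors, with blocked differences of -3.51, -1.42 and -1.07 (limma with the block, adjusted p = 0.0165, 0.0221 and 0.0331). None of the 3 passed among mouse means, where 0 genes passed as lower. A slope on the collagen score over 6 mouse means of all 9 tumors called 0 genes, with 873 positive and 518 negative slopes at an unadjusted p under 0.05 (limma).

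The middle tumor and the tumors of shared mice were compared with the sets. Of the 489 genes with all stroma-rich tumors above, tumor 5 reached the stroma-rich range or beyond in 153, lay between the sets in 78, and was at or below the highest stroma-poor value in 258. Of the 652 genes with all stroma-rich tumors below, the counts were 222, 66 and 364. Tumors 10 and 11, whose collagen scores differed by 0.13, differed by more than 1 on the log2 scale in 10.1% of the genes tested, and tumors 10 and 12 in 12.2%, whereas tumors 11 and 12 did so in 5.13%. Tumors 4 and 3, whose scores differed by 1.30, did so in 3.73%, with 521 genes higher and 90 lower in tumor 4. The number of differing genes did not follow the gap in the collagen score over these 4 pairs, each of which is a single comparison without replicates.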

How the data were processed

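Whole-tumor RNA of 12 tumors from 9 mice was sequenced from stranded poly(A) libraries. The authors trimmed adapters with fastq-mcf, aligned reads to the GRCm38 transcriptome with HISAT and deposited 1 table of TPM values from StringTie 2.1.6 for 47593 Ensembl genes, 1 column per tumor. TPM keeps no read number, so precision per value is unknown, and how transcripts were summed per gene is not given in the sources used here.

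The members and the gene lists were chosen with earlier results of these data known. TPM values were analysed as log2(TPM + 1) with limma 3.58.1 in R 4.3.3, after a filter at a mean of 1 TPM over the 9 epithelial tumors, on 1 mean per mouse and set (n = 3 against 3), two-sided, with Benjamini-Hochberg adjustment over 16363 genes and a threshold of 0.05. The mouse that gave tumors to both sets entered each once, so the mouse values are not fully independent. A fit over 8 tumors with the mouse as a random block, other filters, scalings and pseudocounts, and fits without each tumor were run as alternatives. The procedure was also run on simulated data, which for the fit on mouse means gave each mouse and set an independent value. That simulation therefore does not cover the dependence from the mouse with tumors in both sets. Named genes were up to 4 members of each of 41 lists with the largest absolute difference, markers that define a cell type, genes taken from the study, and the 10 largest non-overlapping differences in each direction outside the lists at a mean of 10 TPM or more. Gene positions are from GENCODE on GRCm38, and promoters from RefSeq on GRCm38.p6. Other steps used Python 3.11.15.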

Additional observations from a re-analysis of the deposited data

Results flagged for a closer look

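In 10 of 302 sets of 4 values examined (151 genes or list medians in each of the stroma-rich and stroma-poor sets), 1 tumor lay far from the other 3 for the range of its set. Chance marks about 1 in 20 such sets. Values are log2(TPM + 1), and no explanation was weighed.

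Among the stroma-rich tumors, tumor 1 was the lowest for the claudin Cldn8 at 0.4071 (next 2.009), for Il20rb at 1.458 (next 2.305) and for the median of the chemokine list at 4.301 (next 5.398). Tumor 4 was the highest for the median of the matrix glycoproteins and proteoglycans at 5.831 (next 4.735).

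Among the stroma-poor tumors, tumor 7 was the highest for Gm20186 at 7.064 (next 1.355), and the lowest for the median of the contractile genes at 3.316 (next 5.229) and of the Wnt ligands and antagonists at 0.5598 (next 1.616). Tumor 6 was the highest for skeletal actin Acta1 at 4.322 (next 0.4836) and the lowest for the median of the pericyte genes at 2.691 (next 3.301). Tumor 11 was the lowest for Trp63 at 2.004 (next 3.863), and was still above every stroma-rich tumor.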

How the results depend on the processing

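The count of 1 gene higher in the stroma-rich tumors was 0 with a pseudocount of 0.1, with no filter on low genes, with the mouse ignored, with the top 3 against the bottom 3 tumors, with a slope on the collagen score and with limma's trend, and 6 with the mouse as a random block. The count of 0 lower genes was 11 with that block. Without 1 tumor or 1 mouse at a time there were 0 to 0 higher and 0 to 3 lower genes, the latter 3 without tumor 7 and 1 without tumor 11. The cause was not tested.

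Of 110 named genes, 101 kept the direction of their difference under all 21 alternatives. The sign reversed for Pdgfrb with the random block (-0.12), for Csn1s1 with the slope (0.58), for Mki67 with the mouse ignored (0.090) and with the slope (0.075), and for Brca1 with the top 3 against the bottom 3 (0.10) and with the slope (0.065). Without 1 tumor or 1 mouse the differences ran from -0.050 to 0.34 for Pdgfrb, from -4.02 to 0.38 for Igkc, from -0.48 to 2.98 for Acta1, from -0.16 to 2.57 for Tnnt3, from -0.41 to 0.28 for Mki67, from -0.45 to 0.17 for Brca1, from -0.10 to 0.38 for Trp53 and from -0.48 to 0.10 for Rb1.

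Replicate numbers name tumors and pair none. Only 1 mouse gave tumors to both sets, and its comparison enters the fit with the mouse as a random block. A fit with the mouse as a fixed block, which would rest on tumor 10 against tumors 11 and 12 alone, was not run. Of 41 list medians 21 kept their sign under the alternatives other than the slope, and 8 moved there beyond the spread between mice. Under the slope, a change per unit of collagen score, 2 of the 21 had the opposite sign, the TGF-beta inhibitors and targets (-0.075) and the milk and alveolar genes (0.14), and 10 lists moved under any alternative. With 3 mouse values in each set, 1 mouse in both, and no read numbers, small differences and genes near 0 TPM were not detectable. Large differences, such as those of Mme, Dpt and Kng2, also missed the threshold. A p that misses the threshold does not show that the sets were alike.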
